A study of Mus musculus with 2 samples.

Results

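The platelet-derived growth factor (PDGF) family of the mouse was followed through 6 genes, the 4 ligand genes Pdgfa, Pdgfb, Pdgfc and Pdgfd and the 2 receptor genes Pdgfra and Pdgfrb. They were taken by gene symbol from a table of 37309 genes, in which each of these 6 symbols has 1 row. The table holds RNA sequencing of cultured intestinal subepithelial myofibroblasts (ISEMFs), the contractile stromal cells that lie under the crypts of the gut. One library came from supportive ISEMFs, grown from the small intestine of 5-day-old neonatal C57BL/6 mice, and 1 from non-supportive ISEMFs, grown from the small intestine of 2-month-old adult C57BL/6 mice. All mice were wild type, and both populations were grown by the same isolation method in serum-containing medium with insulin, transferrin and epidermal growth factor. Supportive means that the cells let crypts form enteroids without added R-spondin, and the study sequenced both populations to look for factors that could differ between them. Age, isolation and supportive capacity change together between the libraries and cannot be told apart. The name of the deposited data also carries a different P number for each population, which the labels do not explain. A difference in culture passage could not be told apart from age either. No difference below has a replicate check, since each population was sequenced once. The libraries are called neonatal (supportive) and adult (non-supportive) from here on, and every ratio is neonatal over adult unless it is said to be lower.

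PDGF ligands are dimers that bring together a pair of receptor chains at the cell surface, which then phosphorylate each other and recruit signalling proteins. PDGF-A and PDGF-C chains act mainly through the α receptor (Pdgfra), PDGF-D mainly through the β receptor (Pdgfrb), and PDGF-B binds both. PDGF-C and PDGF-D are secreted with a CUB domain that proteases must remove before they can bind a receptor. In the gut, epithelial PDGF-A acts on Pdgfra-expressing mesenchyme during villus formation, while Pdgfrb is best known from pericytes and other perivascular cells, which endothelial PDGF-B recruits.

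In the mm9 build, the α receptor gene Pdgfra (ENSMUSG00000029231) spans 75548316 to 75594229 on the plus strand of chromosome 5. Among the ligands, Pdgfa (ENSMUSG00000025856) spans 139451968 to 139473324 on the minus strand of chromosome 5, and Pdgfb (ENSMUSG00000000489) spans 79826330 to 79845238 on the minus strand of chromosome 15. Pdgfc (ENSMUSG00000028019) spans 80840338 to 81017962 on the plus strand of chromosome 3, and Pdgfd (ENSMUSG00000032006) spans 6168612 to 6378843 on the plus strand of chromosome 9. The annotated exons of each gene merge into 7 blocks for Pdgfb, Pdgfc and Pdgfd, 12 for Pdgfa and 24 for each receptor gene.

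Promoter sequences of 4 of the 6 genes were in the RefSeq table of GRCm38.p6, each running from 250 bases before to 50 bases after a transcription start, and each matched the mm9 genome at 1 place. They are shown because 2 of these genes, Pdgfc and Pdgfra, differed in opposite directions between the libraries. Capitals mark every CpG, and the sequences read 5′ to 3′ on the strand of the gene. The Pdgfa entry is the one of 2 that lies at the start of its annotated protein-coding transcripts.
Pdgfra, mm9 chr5:75548026-75548325, plus strand: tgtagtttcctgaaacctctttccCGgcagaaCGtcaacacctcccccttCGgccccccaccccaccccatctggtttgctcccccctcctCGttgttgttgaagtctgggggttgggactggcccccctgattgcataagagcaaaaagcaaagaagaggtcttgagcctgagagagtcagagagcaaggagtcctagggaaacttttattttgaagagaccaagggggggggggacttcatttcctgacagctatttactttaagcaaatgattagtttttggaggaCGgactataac
Pdgfc, mm9 chr3:80840088-80840387, plus strand: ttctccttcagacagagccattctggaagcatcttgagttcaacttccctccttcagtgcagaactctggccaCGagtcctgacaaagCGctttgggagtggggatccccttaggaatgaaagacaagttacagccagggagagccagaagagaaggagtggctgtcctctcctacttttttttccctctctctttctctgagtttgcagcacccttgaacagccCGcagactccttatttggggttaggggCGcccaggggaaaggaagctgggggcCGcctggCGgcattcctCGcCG
Pdgfd, mm9 chr9:6168236-6168535, plus strand: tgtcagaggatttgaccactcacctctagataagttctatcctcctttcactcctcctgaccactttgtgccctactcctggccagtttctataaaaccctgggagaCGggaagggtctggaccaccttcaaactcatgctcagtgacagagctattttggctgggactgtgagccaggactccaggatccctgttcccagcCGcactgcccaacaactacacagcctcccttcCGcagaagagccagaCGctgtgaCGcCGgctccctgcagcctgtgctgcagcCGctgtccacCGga
Pdgfa, mm9 chr5:139470849-139471148, minus strand: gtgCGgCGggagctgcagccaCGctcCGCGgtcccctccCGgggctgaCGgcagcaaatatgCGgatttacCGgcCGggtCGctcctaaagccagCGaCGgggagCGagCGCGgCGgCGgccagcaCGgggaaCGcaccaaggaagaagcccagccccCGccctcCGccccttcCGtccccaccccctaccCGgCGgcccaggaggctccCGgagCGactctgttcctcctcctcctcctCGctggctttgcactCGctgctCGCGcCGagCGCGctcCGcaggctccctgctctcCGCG
The Pdgfa promoter held 37 CpGs and 73.3% G and C, against 5 CpGs and 51.0% for Pdgfra. The Pdgfc promoter held 8 CpGs and 55.0% G and C, and that of Pdgfd 8 CpGs and 56.7%. The median over the 32851 promoters in the table was 7 CpGs and 52.7%. A GC box (GGGCGG, either strand) was found in the Pdgfa sequence only among these 4, at 2 places that start 93 and 86 bases before the start site, and in 35.7% of all promoters. A TATA box (TATAAA, either strand) was found in the Pdgfd sequence, 160 bases before its start site, and in 13.6% of all promoters. CCAAT (37.4% of all promoters), TGACTCA (5.20%) and the EGR1 box GCGGGGGCG (2.91%, a motif that shares letters with the GC box without holding it) were found in none of the 4 on either strand. These are matches of letters and not sites shown to be bound.

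Genes received 50674472 neonatal and 49615497 adult reads. The myofibroblast genes Acta2 and Vim were among the abundant transcripts of both, at RPKM values from 325 to 1410, and Des was at 0.575 and 3.40. RPKM is the number of reads per kilobase of exon, scaled to the size of the library, and is the level used throughout. Of 8 endothelial marker genes, 0 reached an RPKM of 1 in either library. Of 9 macrophage marker genes, 8 reached it and all 8 were at least 2-fold lower in the neonatal library. Over all genes that reached it, 9.27% were at least 2-fold lower there. The macrophage list summed to 9.46 in the neonatal library against 128, with Tyrobp, Ptprc, Itgam and Emr1 at 0 neonatal reads. Only Cd53 and Lyz2 had an RPKM over 1 in the neonatal library. The part of such cells in the results that follow was not tested, and fewer cells of a type and less RNA per cell cannot be told apart in bulk RNA.

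The receptors went in opposite directions. Pdgfrb was higher and Pdgfra was lower in supportive ISEMFs, so that the more abundant receptor transcript was Pdgfrb in the neonatal library and Pdgfra in the adult one. Among the ligands, Pdgfc was higher in supportive ISEMFs, Pdgfa was moderately lower, Pdgfd was a little under the 2-fold threshold, and Pdgfb was barely detected. Of the 6 genes, 5 reached an RPKM of 1 in one of the libraries or both. Of these 5, 3 had a 2-fold difference on the scale of log2(RPKM + 0.1), Pdgfc and Pdgfrb higher and Pdgfra lower, which is 60.0%. Over all genes with that level, 1844 of 10086 had a 2-fold difference (18.3%), 9.01% higher and 9.27% lower in supportive ISEMFs. The genes are too few for this share to say anything about the family. At 4-fold, 1 member (Pdgfc) passed, against 6.53% of expressed genes. It passed narrowly, with a log2 ratio of 2.005, and on the scale of log2(RPKM + 1) its ratio was 1.78, under 4-fold. These fold calls take no account of variation between cultures, and the result of a test that does depends on the variation assumed. With a coefficient of variation of 0.2, edgeR's exact test called the same 3 members and 14.6% of all genes with a read (Benjamini-Hochberg adjusted p under 0.05), and with 0.4 it called 0 members and 4.99% of genes.

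**Figure D1:**
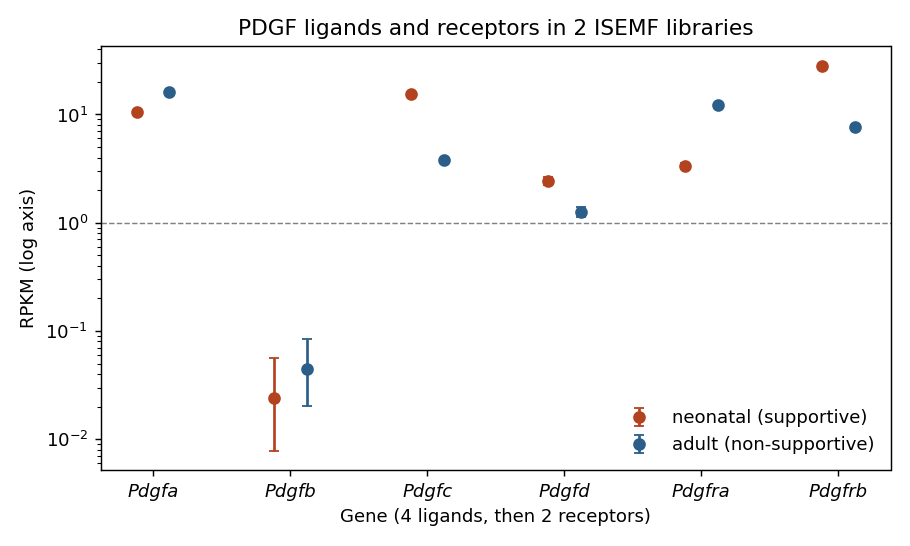
RPKM of the 6 PDGF genes (log axis) in the neonatal and the adult library, 1 library each, with exact 95% Poisson intervals of the reads as bars; the dashed line is an RPKM of 1. Pdgfc, Pdgfd and Pdgfrb sit higher in the neonatal library, Pdgfa and Pdgfra sit higher in the adult one, and Pdgfb lies under 0.1 in both.

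Pdgfrb (ENSMUSG00000024620), the β receptor gene, spans 61204804 to 61244715 on the plus strand of mm9 chromosome 18. Its RPKM was 28.1 from 14662 neonatal reads and 7.67 from 3894 adult reads. The neonatal level was 3.66-fold higher, with an exact 95% interval of 3.53 to 3.79 by the reads, and the log2 ratio was 1.86. Its level was rank 751 among protein-coding genes in the neonatal library and rank 3046 in the adult one.

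For Pdgfra the RPKM was 3.37 from 1621 neonatal reads and 12.1 from 5663 adult reads. It was 3.59-fold lower in supportive ISEMFs (95% exact interval, 3.40 to 3.80), a log2 ratio of -1.82. Its rank among protein-coding genes was 5346 in the neonatal library and 2084 in the adult one. The intervals here and below cover counting error only, and they leave out the variation between cultures, which 1 library per population cannot show.

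The balance of the receptors was reversed. The RPKM of Pdgfrb was 8.33 times that of Pdgfra in the neonatal library and 0.633 times in the adult one. The quotient of these ratios was 13.2, with an exact 95% interval of 12.3 to 14.1 by the reads, and it depends on neither library size nor gene length. Pdgfrb made 89.3% of the summed receptor RPKM in supportive ISEMFs and 38.8% in non-supportive ISEMFs. The sum itself was 31.4 against 19.8.

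**Figure D2:**
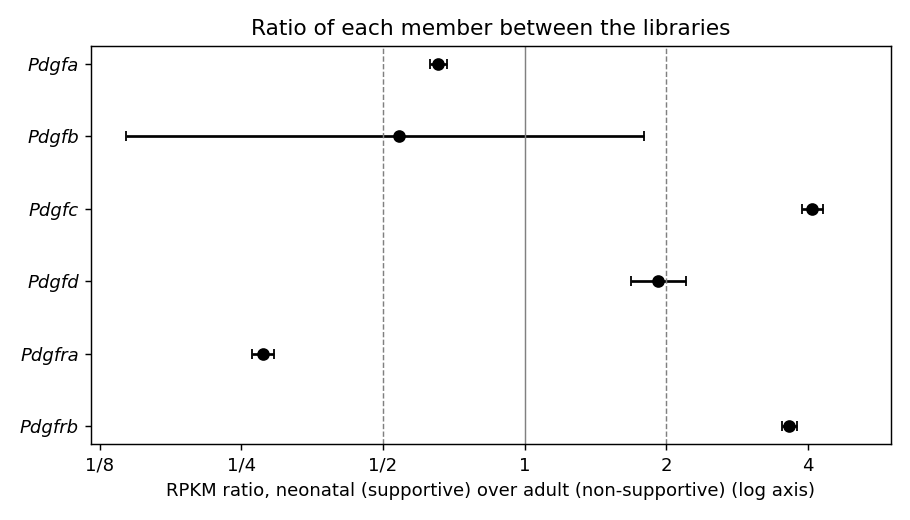
Ratio of RPKM between the neonatal and the adult library for each PDGF gene (log axis), with exact 95% intervals from the reads as bars; the solid line is no difference and the dashed lines are 2-fold. Pdgfc at 4.09 and Pdgfrb at 3.66 lie beyond the upper line, Pdgfra at 0.278 lies beyond the lower one, and only the interval of Pdgfb crosses 1.

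Pdgfc, the first of the CUB-domain ligands, had 7710 neonatal reads, an RPKM of 15.4. The adult library held 1830 Pdgfc reads, an RPKM of 3.76. The neonatal level was 4.09-fold higher (95% exact interval, 3.89 to 4.31), the largest of the 6 ratios in either direction, and the log2 ratio was 2.01.

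Pdgfd, the other CUB-domain ligand, was at an RPKM of 2.44 from 652 neonatal reads and 1.27 from 329 adult reads. Its ratio was 1.93 (95% exact interval, 1.68 to 2.21) and its log2 ratio 0.89, just under the threshold. Pdgfd was the 1 expressed member whose interval reached across a 2-fold difference.

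Pdgfa, the classical ligand of the α receptor, went the other way from these. Its RPKM was 10.6 from 3752 neonatal reads and 16.1 from 5560 adult reads, and it was 1.52-fold lower in supportive ISEMFs (95% exact interval, 1.46 to 1.59). The log2 ratio of -0.60 did not reach 2-fold. An antisense gene, 6330403L08Rik, shares 813 exon bases with Pdgfa and had 712 and 622 reads. The paper does not say whether reads kept their strand, and it states that reads not unique to a single gene were excluded. The effect of this on the level of Pdgfa was not tested. Likewise, the antisense gene Gm16000 shares 147 exon bases with Pdgfc and had 7 and 5 reads.

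Pdgfb, the ligand of both receptors, had 5 neonatal and 9 adult reads, RPKM values of 0.0240 and 0.0444. The ratio of 0.540 had a 95% exact interval of 0.142 to 1.79, so a difference was not detectable at this depth. A level of 3 reads would be an RPKM of 0.0144 in the neonatal and 0.0148 in the adult library. The summed RPKM of the 8 endothelial markers was also low, at 0.157 and 0.246.

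The make-up of the ligand transcripts differed with these ratios. Pdgfc made 54.2% of the summed ligand RPKM in supportive ISEMFs and Pdgfa made 37.2%. In non-supportive ISEMFs Pdgfa made 76.0% and Pdgfc 17.8%. Pdgfd made 8.58% and 5.98%, and Pdgfb 0.0844% and 0.210%. The RPKM of Pdgfc was 1.46 times that of Pdgfa in the neonatal library and 0.234 times in the adult one, a quotient of 6.24 (95% exact interval, 5.84 to 6.67). The summed ligand RPKM was 28.4 in the neonatal library and 21.2 in the other.

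**Figure D3:**
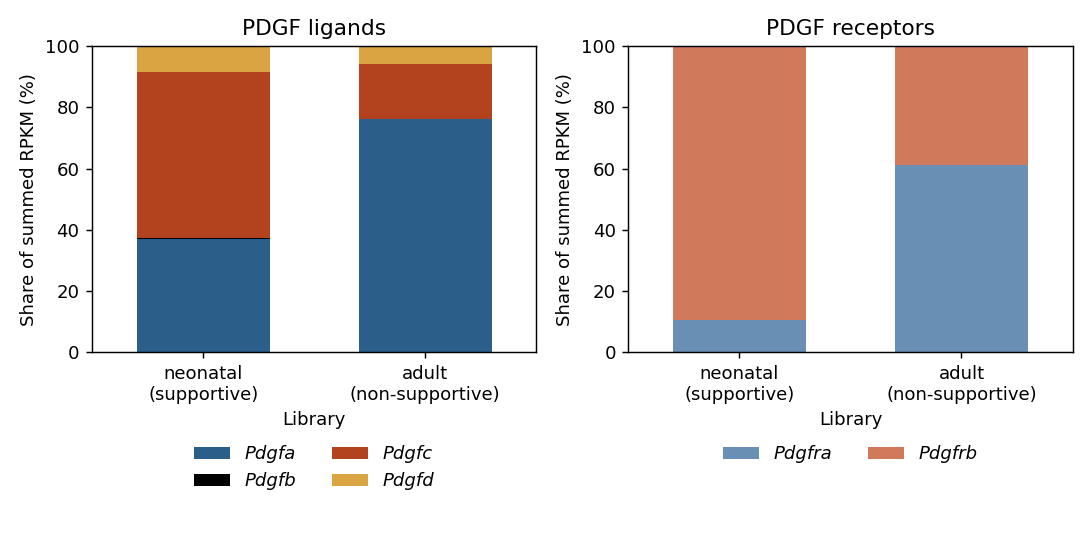
Share of each gene in the summed RPKM of the 4 ligands (left) and of the 2 receptors (right) in each library, in percent. Pdgfc at 54.2% is the main ligand transcript of the neonatal library and Pdgfa at 76.0% that of the adult one, and Pdgfrb makes 89.3% and 38.8% of the receptor transcripts.

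Setting ligands beside the receptor they are known to use, the ratio of Pdgfc to Pdgfra was 4.57 in the neonatal library and 0.311 in the adult one. Pdgfa was 3.13 times Pdgfra in the neonatal library and 1.33 times in the other. Pdgfd stayed far under Pdgfrb in both, at 0.0869 and 0.165 times its RPKM. 

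Among receptor tyrosine kinases, the PDGF receptors changed places. The list of these genes held 59 rows for 58 symbols, of which 27 reached an RPKM of 1. Of these 27, 14 differed by 2-fold, with 6 raised and 8 reduced in the neonatal library. That share was 51.9%, where 18.3% of all genes at that level passed 2-fold. Pdgfrb is itself counted among the 6 and Pdgfra among the 8. Pdgfrb was rank 4 in the neonatal library and rank 10 in the adult one. Above it in the neonatal library were the collagen receptor Ddr2 at an RPKM of 46.6, the Gas6 receptor Axl at 28.3 and the insulin-like growth factor receptor Igf1r at 28.2. The 95% Poisson interval of Pdgfrb, 27.6 to 28.5, overlapped those of Axl and Igf1r, so their order was not resolved. Pdgfra was rank 16 in the neonatal library and rank 7 in the adult one. Its neonatal 95% Poisson interval, 3.20 to 3.53, overlapped those of Met and Lmtk2, so their order was not resolved either. The adult list was led by Axl at 62.1, Igf1r at 38.0 and Ddr2 at 28.5. With them were the epidermal growth factor receptor Egfr at 28.0 and the ephrin receptor Epha4 at 21.0.

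**Figure D4:**
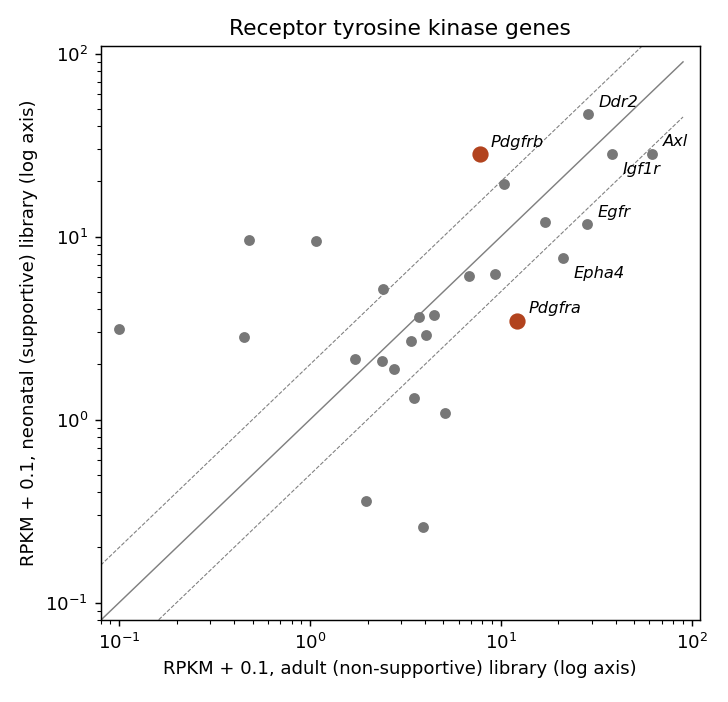
RPKM + 0.1 of the 27 receptor tyrosine kinase genes that reached an RPKM of 1 (both axes log), neonatal against adult; the solid line is equality and the dashed lines are 2-fold. Pdgfrb lies above the upper dashed line and Pdgfra below the lower one.

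Differences of 2-fold were also common among the expressed genes closest in kind to the PDGF family. Of the other class III receptors, Kit, Csf1r and Flt3 did not reach an RPKM of 1, and Csf1r was at 0.0467 in the neonatal and 0.659 in the adult library. Of their ligands, 2 were expressed and lower in supportive ISEMFs. Csf1, which sustains macrophages, was at 20.1 against 87.8, and Kitl, the stem cell factor, was at 1.97 against 25.2. Among the related VEGF family, 7 of 8 genes were expressed, 3 of them higher and 3 lower (85.7%, against 18.3% of all expressed genes). Figf, which encodes VEGF-D, was at 43.7 against 2.53, Vegfb at 3.52 against 1.66 and Pgf at 1.53 against 0.191. The lower ones were Vegfc at 0.255 against 2.84 and the receptors Flt1 at 0.260 against 1.86 and Flt4 at 0.158 against 3.81. Vegfa, at 14.9 and 21.5, was within 2-fold.

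The PDGF pathway around the members was followed in 5 lists with 72 measured genes of 73, of which 62 reached an RPKM of 1. Of these, 11 were higher and 12 lower by 2-fold in supportive ISEMFs (37.1%, against 18.3% of all expressed genes), and the median log2 ratio was -0.23, against -0.07 over all expressed genes. The lists were unlike each other, from 0 of 5 genes past 2-fold among the proteases to 10 of 13 among the immediate response genes.

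The 5 expressed genes for proteases that cleave PDGF precursors were within 2-fold. Plat, which activates PDGF-C, was at 5.32 neonatal and 4.19 adult RPKM. Plau, which activates PDGF-D, was at 15.6 against 30.1, a log2 ratio of -0.95. St14, the other known activator of PDGF-D, had 1 and 4 reads. Furin was at 0.871 and 1.52. Pcsk5 did not reach an RPKM of 1, at 0.518 from 325 neonatal reads and 0.0934 from 57 adult reads. Its ratio was 5.54 (95% exact interval, 4.17 to 7.48).

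Of the 6 expressed genes for PDGF-binding and co-receptor proteins, 2 were higher and 1 lower. Thbs2, a matrix thrombospondin, was at 55.7 against 14.0, and Lrp1, an endocytic receptor that associates with the β receptor, was at 38.3 against 15.8. The lower gene was the neuropilin Nrp2, at 21.9 against 69.3. Sparc, whose protein binds PDGF, was within 2-fold at 1698 and 1599.

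Of 22 expressed adaptor and effector genes, 27.3% differed by 2-fold, 5 of them lower, with a median log2 ratio of -0.40. The lowest ratios were those of the adaptor Nck2, at 0.407 against 1.29, and of the kinase Src, at 0.509 against 1.43. Of 16 expressed attenuators, 1 was higher and 3 lower. The share of the adaptors is nearer to the 18.3% of all expressed genes than that of the immediate response genes (76.9%). Spry1, a feedback inhibitor of Ras signalling, was at 14.3 against 2.41, while its relative Spry4 was at 5.67 against 23.0. The phosphatases Dusp5 and Dusp4, which act on ERK, were at 1.21 against 7.55 and at 10.8 against 44.9.

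Of 13 expressed genes that PDGF or serum induces early in fibroblasts, 7 were higher and 3 lower in supportive ISEMFs. That is 76.9%, against 18.3% of all expressed genes, and the median log2 ratio was 1.17. Fos was at 7.57 against 0.425 and Egr1, a zinc finger transcription factor, at 202 against 23.6. The lower genes were led by the chemokine Ccl2, at 1.96 against 21.2, and the urokinase receptor Plaur, at 5.29 against 20.3. Many stimuli besides PDGF induce these genes, and the state of the cultures at lysis was not recorded in the labels.

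**Figure D5:**
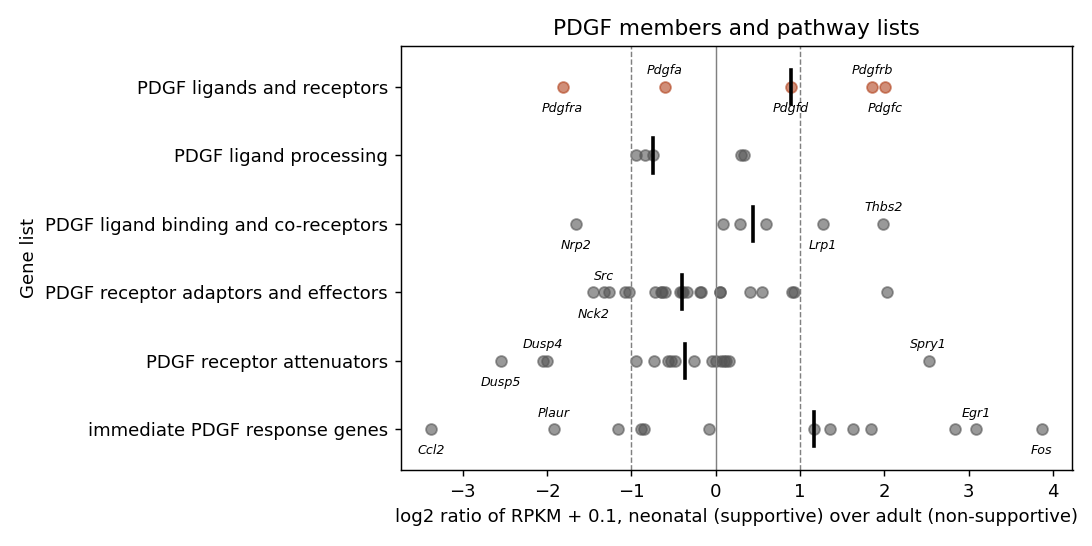
Log2 ratio of RPKM + 0.1, neonatal over adult, of the PDGF members and the genes of 5 pathway lists that reached an RPKM of 1; each point is a gene, the black bars are medians and the dashed lines are 2-fold. Proteases lie within the dashed lines, and the immediate response genes spread from Ccl2 at -3.38 to Fos at 3.87.

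Markers of stromal cell types known for either receptor were set beside the receptors. Over all expressed genes, 18.3% differed by 2-fold. The share was 40.0% of expressed pericyte genes, 100% of those that mark Pdgfra-high cells, 42.9% of smooth muscle and 33.3% of glial and neuronal genes. No list here has more than 7 expressed genes, too few for a share to say anything about a cell type. Of 8 pericyte genes 5 were expressed, with 1 higher (Notch3, 2.38 against 0.158), 1 lower (Rgs5, 0.578 against 2.37) and a median log2 ratio of 0.15. Cspg4 was at 4.44 and 3.04 and Mcam at 29.7 and 44.7, while Abcc9, Kcnj8 and Higd1b were under an RPKM of 1 in both. The list summed to 38.6 in the neonatal and 51.7 in the adult library. Of 8 genes that mark Pdgfra-high cells under the gut epithelium, 3 were expressed. Wnt5a was at 0.983 against 17.0 and the tissue factor gene F3 at 42.4 against 85.0, both lower as Pdgfra was. F3 passed 2-fold narrowly, with a log2 ratio of -1.004. Gli1 was higher, at 1.98 against 0.0104. Foxl1 had 1 read and Bmp5 had 0 reads over both libraries. Of 7 smooth muscle genes, all expressed, 0 were higher and 3 lower. Myh11, the smooth muscle myosin heavy chain, was at 26.3 against 108, Cnn1 at 78.6 against 187 and Des as given above, and the list summed to 413 in the neonatal and 671 in the adult library. Of 6 glial and neuronal genes 3 were expressed, with S100b higher, at 6.69 against 0.116, and Tubb3 and Uchl1 within 2-fold, while Sox10 had 0 reads in both. Of 4 platelet and 7 epithelial genes, 1 each was expressed and lower, Pf4 with 0 neonatal reads and an adult RPKM of 9.39, and Krt20 at 0.0799 against 3.13. Among the epithelial genes under an RPKM of 1, Cdh1 (159 neonatal and 18 adult reads) and Muc2 (27 and 3) went the other way. Krt18 had 0 neonatal and 19 adult reads, Krt8 0 and 4, Epcam 0 and 5, and Vil1 7 and 8. The part of these cell types in the receptor differences was not tested. Which cells in each culture carried Pdgfra or Pdgfrb was not tested.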

How the data were processed

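Each ISEMF population was sequenced as 1 library. Per the labels and the methods, the authors made TruSeq cDNA libraries and aligned single-end 50-base reads to mm9 with TopHat2 2.0.4. They allowed 2 mismatches and unique hits only, and counted reads per gene with HTSeq 0.5.4p3. The methods of the paper do not say whether the libraries kept the strand. The deposited counts are whole reads without normalization. The deposited RPKM values scale the counts by the length of all exons of the gene and by library sizes of 71463423 and 69449374 reads. The deposited log2 ratio and DESeq p-values hold the authors' own comparison and were not used, and a deposited Wnt pathway table of 209 genes holds none of the members.

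Genes named here are the 6 members, the 2 largest differences past 2-fold in each direction of each pathway list, receptor kinases ranked above a PDGF receptor (up to 5), expressed relatives, and the 2 protein-coding genes nearest to each expressed member. Other genes in the text are further members of those lists. A few genes of the lists are not reported here. The members and lists were chosen with earlier results of these data known. Coordinates are from GENCODE vM1 (mm9), which holds all 37309 identifiers, but the deposited exon length equals its own for only 2 of the 6 members.

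Log2 ratios used a pseudocount of 0.1, which understates differences of low genes, and 2-fold differences were counted among genes that reached an RPKM of 1. Intervals are at 95%: Clopper-Pearson for ratios, conditional odds ratios for quotients, Poisson for levels. They cover counting error only. With 1 library per population no model can estimate replicate variation, and edgeR's exact test serves as an alternative under assumed variation. The steps were tested on simulated data. Tools were edgeR 4.0.16 and DESeq2 1.42.0 (size factors only) under R 4.3.3, and scipy 1.17.1, pandas 2.3.3 and matplotlib 3.10.9 under Python 3.11.15.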

Additional observations from a re-analysis of the deposited data

How the results depend on the processing

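The same 3 PDGF genes passed 2-fold under a minimum of 5 RPKM, of 10 reads or none, and with 1 or 0.001 as pseudocount. They also passed with TMM factors and with a median log2 ratio set to 0. Size factors were 1 for both libraries, which leaves the reads unscaled, and the same 3 genes passed. Leaving mitochondrial ribosomal RNA (13.5% and 7.13% of the reads on genes) out of the totals raised the log2 ratios of the 5 expressed members by 0.11 and brought Pdgfd just past 2-fold, for 4 members. A 4-fold threshold left 1 member, Pdgfc just past it, and 8 pathway genes, where 6.53% of all expressed genes pass. With an assumed coefficient of variation of 0.2, edgeR's exact test (Benjamini-Hochberg adjusted p under 0.05) called the same 3 members and 14.6% of 21596 genes with a read. With 0.4 it called 0 members, 4 pathway genes and 4.99% of all genes. The pathway count was otherwise 18 to 26, against 23. No member changed direction under any pseudocount or scaling. With the longest annotated transcript as gene length, the RPKM ratio of Pdgfrb to Pdgfra was 11.0 (neonatal) and 0.833 (adult), and without length correction 9.05 and 0.688, while the quotient stayed at 13.2. The share of Pdgfc among ligand transcripts was then 51.8% and 15.6%. No paired analysis was possible because each population has 1 library, and no replicate could be left out.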

Other observations

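Pdgfrl, a gene for a PDGF receptor-like protein that lacks a kinase domain, is no member of the family as defined here and was chosen after its values were seen. In mm9 it spans 42011566 to 42076139 on the plus strand of chromosome 8. Its RPKM was 7.22 from 1613 neonatal reads and 0.456 from 99 adult reads. The ratio was 15.8, with an exact 95% interval of 12.9 to 19.6 by the reads, and the log2 ratio was 3.72, a larger difference than any of the 6 PDGF genes showed.

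Neighbours of the receptor genes on the chromosome did not share their levels. Kit, the next protein-coding gene after Pdgfra at 376712 bases, had 0 and 6 reads, and Gsx2 on the other side had 0 reads in both libraries. Csf1r, 20511 bases after Pdgfrb, was lower in the neonatal library at an RPKM of 0.0467 against 0.659, the other way from Pdgfrb at 28.1 against 7.67. Cdx1, 8951 bases before Pdgfrb, had 0 reads in both. On one side of Pdgfd, Casp12 at 795580 bases was at 2.79 in the neonatal library against 1.05. On the other, Dync2h1 at 549660 bases was at 1.46 against 0.851, and both went the same direction as Pdgfd at 2.44 against 1.27. Beside Pdgfa, Fam20c was at 0.951 against 1.06 and Prkar1b at 0.553 against 1.81. Beside Pdgfb, Cbx7 was at 0.216 against 0.0476 and Rpl3 at 1.24 against 1.66. The neighbours of Pdgfc had 0 reads in both libraries.

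The protein-coding genes nearest to each expressed member over both libraries, by Euclidean distance of log2(RPKM + 0.1), were Htr2a and Zdhhc2 for Pdgfra, Pmp22 and Sgce for Pdgfrb, Top1 and Psmc4 for Pdgfa, Cdkn1b and Mt1 for Pdgfc, and Tef and Nt5dc1 for Pdgfd. Distances ran from 0.022 for Tef to 0.20 for Sgce. With 2 libraries this likeness means only that the levels were alike.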
